A study of Rattus norvegicus with 6 samples.

Results

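Growth hormone reaches the hepatocyte through its receptor and a kinase cascade that ends in gene activation, and the liver answers by secreting IGF1 together with the proteins that carry it. The genes described here are 9 of the 20104 in the deposited tables. They are Ghr, Stat5b, Socs2, Igf1, Igfals, Igfbp1, Igfbp2, Igfbp3 and Igfbp4, found by exact symbol in both the count and the FPKM table, and all 9 passed the filter on low counts. They were picked with the difference between the dressings already known from these same libraries. Their values are therefore a description and carry no test. Related genes of the pathway, taken from 4 lists, were tested in a fit over all genes. These lists were also chosen with earlier results of these data known, so their shares are descriptive.

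The libraries came from rat liver (Rattus norvegicus) taken on day 14 of repair, after a liver trauma covered with a haemostatic dressing. The control dressing was Quik-clot, with 3 libraries, and the dressing under study was AKOC, also with 3. All 6 share the trauma and the time of collection, and unwounded liver was not analysed here. Strain, sex, age, feeding state, hour of collection and whether each library is 1 animal are not stated in the labels, so the spread between libraries may be partly technical. Total counts ran from 40402312 to 41455378 per library. Hepatocyte markers fitted the labelled tissue: all 8 of the list were detected, and their summed level was 114777 to 174376 CPM with Quik-clot and 128801 to 191635 CPM with AKOC (CPM are counts scaled to 1e+06 per library, after trimmed-mean scaling). The Y-linked genes Kdm5d (13.9 to 19.5 CPM), Eif2s3y (30.8 to 43.1 CPM) and Uty (9.02 to 12.4 CPM) were detected in every library.

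As background, growth hormone binds GHR, which activates the kinase JAK2. JAK2 phosphorylates STAT5B, and STAT5B switches on Igf1, Igfals and the feedback inhibitor Socs2. IGF1 circulates mainly in a complex with IGFBP3 and the acid-labile subunit encoded by Igfals, while IGFBP1 and IGFBP2 form smaller complexes and rise with fasting and low insulin. In rats the rhythm of growth hormone release also differs between the sexes and sets which cytochrome P450 genes the liver expresses.

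Promoters are shown for Igfbp1 and Igfbp2, the members whose levels differed most between libraries, and for Igf1, the hormone they bind. RefSeq sequences on the GRCr8 build were found for 8 of the 9 members, with Socs2 as the missing entry. Each line gives the 250 bases before the annotated start, 5′ to 3′, with searched motifs in capitals. 
Igfbp1, chr14:86261027-86261276, plus strand: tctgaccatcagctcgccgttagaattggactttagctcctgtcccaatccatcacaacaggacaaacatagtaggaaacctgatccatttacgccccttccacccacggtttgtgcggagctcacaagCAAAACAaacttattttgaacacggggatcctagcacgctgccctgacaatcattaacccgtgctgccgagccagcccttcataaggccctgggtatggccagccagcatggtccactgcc
Igfbp2, chr9:81864561-81864810, plus strand: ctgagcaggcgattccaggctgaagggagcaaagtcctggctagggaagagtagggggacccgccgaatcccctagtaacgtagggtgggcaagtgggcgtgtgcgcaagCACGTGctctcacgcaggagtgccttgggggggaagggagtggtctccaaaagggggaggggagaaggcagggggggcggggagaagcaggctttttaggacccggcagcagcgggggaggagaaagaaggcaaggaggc
Igf1, chr7:24172282-24172531, plus strand: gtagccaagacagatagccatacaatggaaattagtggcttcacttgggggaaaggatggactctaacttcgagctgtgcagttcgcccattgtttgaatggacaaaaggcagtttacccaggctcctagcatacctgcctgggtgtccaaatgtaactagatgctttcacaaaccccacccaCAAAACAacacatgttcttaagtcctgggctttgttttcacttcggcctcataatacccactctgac
The capitals in Igfbp1 and Igf1 mark CAAAACA, the core of the insulin response element through which forkhead factors act, 121 to 115 bases before the Igfbp1 start and 67 to 61 bases before that of Igf1. The capitals in Igfbp2 mark CACGTG, the E-box bound by clock and other helix-loop-helix factors, 140 to 135 bases before the start. Both strands were searched, and CAAAACA occurred in 5.46% and CACGTG in 5.59% of 33465 promoter windows of this length. The STAT5 element TTCNNNGAA (7.67% of windows) and the forkhead core GTAAACA (3.21%) had no match in the 8 member windows, and no marked match overlapped another. Matches describe letters in the window only. In the RefSeq annotation Igfbp1 and Igfbp3 are neighbours on chromosome 14, Igfbp2 and Igfbp5 on chromosome 9, and Stat5b, Stat5a and Stat3 on chromosome 10.

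After trimmed-mean scaling, the receptor, its signal transducer and its feedback inhibitor stood higher in all AKOC libraries than in any Quik-clot library. Ghr, the growth hormone receptor, measured 325, 532 and 304 CPM in Quik-clot replicates 1, 2 and 3 and 552, 613 and 678 CPM in AKOC replicates 1, 2 and 3. Quik-clot replicate 2 came closest to the lowest AKOC library, and the other Quik-clot libraries lay far below. In FPKM Ghr overlapped, at 119 in Quik-clot replicate 2 and 116 in AKOC replicate 2. The means were 387 ± 126 and 615 ± 63.3 CPM (SD, n = 3 per dressing, as for all means here), a log2 fold change of 0.67 ± 0.25 (SE from edgeR) for AKOC over Quik-clot.

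Stat5b, the transcription factor that carries the signal to the nucleus, measured 32.3, 34.9 and 37.1 CPM with Quik-clot and 40.5, 59.4 and 48.6 CPM with AKOC. Its Quik-clot values were tightly grouped, with a mean of 34.8 ± 2.38 CPM against 49.5 ± 9.51 CPM, and the log2 fold change was 0.51 ± 0.15. Socs2, an early target of STAT5 that ends the signal at the receptor, measured 7.23, 3.46 and 10.97 CPM with Quik-clot and 27.4, 13.3 and 16.6 CPM with AKOC. These CPM rest on 151 to 1219 reads per library. Means of 7.22 ± 3.75 and 19.1 ± 7.35 CPM gave a log2 fold change of 1.41 ± 0.43.

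The order of libraries was not the same for these genes. AKOC replicate 3 was highest for Ghr, AKOC replicate 2 for Stat5b and AKOC replicate 1 for Socs2. Quik-clot replicate 2, which had the most Ghr of its group, had the least Socs2. Per unit of Ghr, on the FPKM scale, Socs2 stood at 0.0191, 0.00559 and 0.0310 with Quik-clot and 0.0426, 0.0187 and 0.0210 with AKOC. These ratios overlapped between the dressings.

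**Figure D1:**
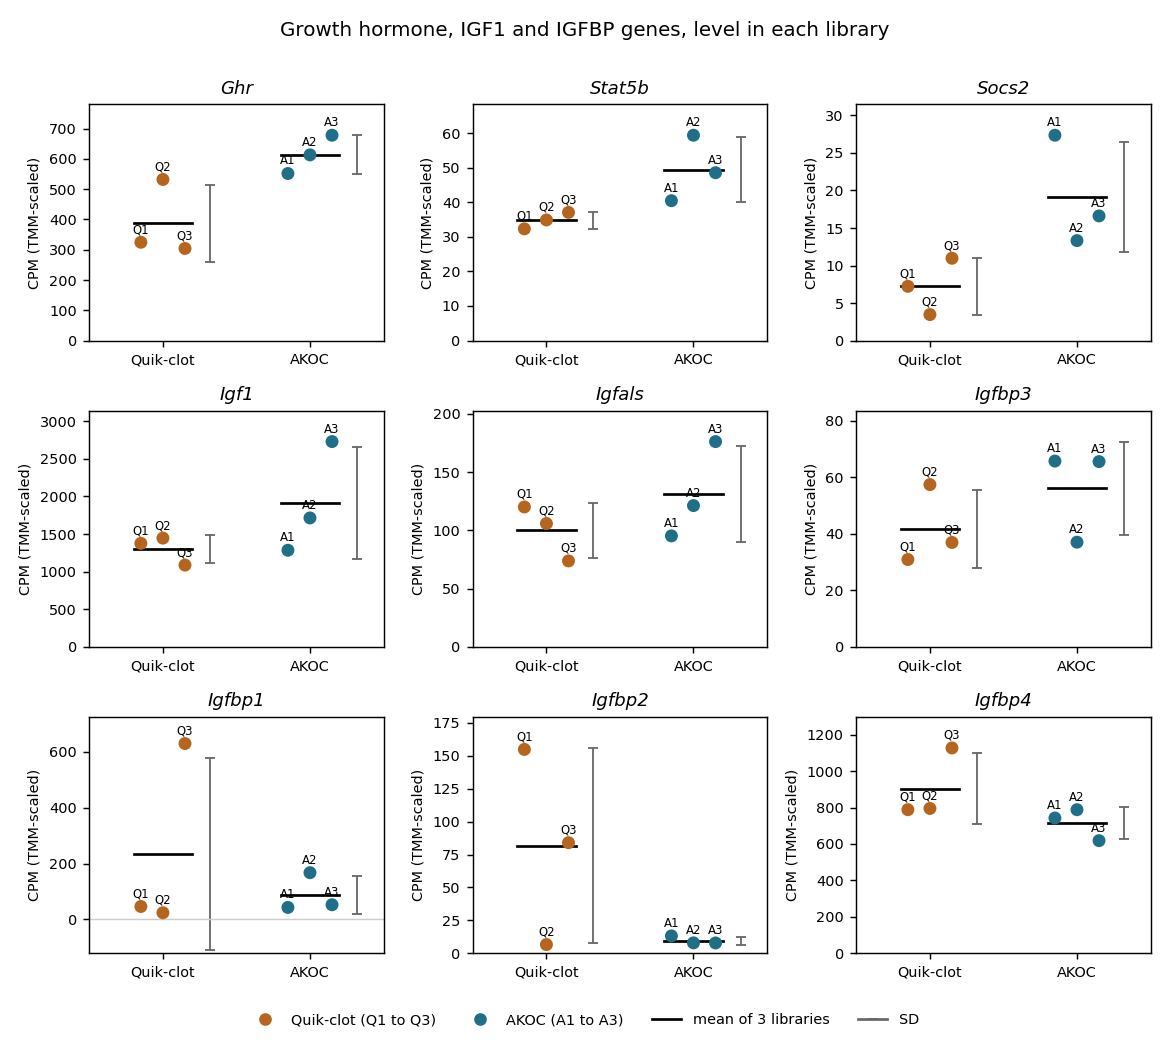
Level of each of the 9 genes in each library, in CPM after trimmed-mean scaling on linear axes, with points for libraries (Q1 to Q3 Quik-clot, A1 to A3 AKOC), black bars for means and grey bars for SD. Ghr, Stat5b and Socs2 are higher in every AKOC library than in any Quik-clot library, whereas Igfbp1 and Igfbp2 owe their high Quik-clot means to 1 and 2 libraries.

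The hormone itself overlapped between the dressings. Igf1, which encodes the growth factor that liver secretes into the blood, measured 1376, 1445 and 1087 CPM with Quik-clot and 1285, 1714 and 2728 CPM with AKOC. AKOC replicate 1 lay below 2 of the Quik-clot libraries, and AKOC replicate 3 stood 1.59-fold above the next library. The means were 1303 ± 190 and 1909 ± 741 CPM, with a log2 fold change of 0.55 ± 0.30 that was 0.21 without AKOC replicate 3.

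Igfals, the acid-labile subunit that holds IGF1 in the circulation, gave 120, 106 and 73.8 CPM with Quik-clot and 95.3, 121 and 176 CPM with AKOC. Quik-clot replicate 3 was lowest and AKOC replicate 3 highest, as for Igf1. The log2 fold change was 0.39 ± 0.27, and 0.12 without AKOC replicate 3. The ratio of Igfals to Igf1, in FPKM, varied little, from 0.139 to 0.179 with Quik-clot and from 0.132 to 0.152 with AKOC.

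Igfbp3, the main carrier of IGF1 in blood, measured 30.9, 57.4 and 36.9 CPM with Quik-clot and 65.7, 37.03 and 65.5 CPM with AKOC. Quik-clot replicate 2 and AKOC replicate 2 each lay with the other dressing's values, and the log2 fold change was 0.43 ± 0.30. The 3 genes of the circulating complex, Igf1, Igfals and Igfbp3, thus all had positive fold changes and all overlapped.

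Igfbp1, a carrier that responds within hours to insulin and stress, varied 26.6-fold over the 6 libraries. It measured 46.0, 23.7 and 630 CPM with Quik-clot and 42.5, 167 and 52.2 CPM with AKOC. Quik-clot replicate 3 stood 3.77-fold above the next library, AKOC replicate 2, and the remaining 4 lay between 23.7 and 52.2 CPM. The log2 fold change of -1.42 ± 1.19 turned to 1.33 without Quik-clot replicate 3, so its direction rested on that library. With limma-voom it was -0.33, and with the replicate block -0.23. The adjacent gene Igfbp3 was low in both of the libraries where Igfbp1 was highest, at 36.9 and 37.03 CPM, although Quik-clot replicate 1 was lower still.

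Igfbp2, a carrier abundant in fetal and fasted liver, measured 155, 6.60 and 84.0 CPM with Quik-clot and 13.2, 7.90 and 7.82 CPM with AKOC. Quik-clot replicates 1 and 3 were far above all others, while Quik-clot replicate 2 had the least of the 6. The AKOC libraries were close together, 1.68-fold from lowest to highest, against 23.5-fold within Quik-clot. Means of 81.8 ± 74.1 and 9.63 ± 3.07 CPM gave a log2 fold change of -3.08 ± 0.94, which was -2.23 without Quik-clot replicate 1, -2.22 with limma-voom and -2.21 on log2(FPKM + 1). The counts behind these values ran from 288 to 7114.

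Igfbp4, an inhibitory binding protein expressed at a high level in liver, measured 788, 795 and 1127 CPM with Quik-clot and 742, 788 and 618 CPM with AKOC. The dressings were narrowly separated, at 787.98 CPM in AKOC replicate 2 and 788.1 CPM in Quik-clot replicate 1, and the log2 fold change was -0.33 ± 0.21. Without Quik-clot replicate 3, the highest library, it was -0.14 and the dressings overlapped. They also overlapped with no filter on low counts, with a filter at 1 CPM in 3 libraries and without AKOC replicate 3.

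In all, 4 of 9 members did not overlap between the dressings (3 higher with AKOC, Igfbp4 lower), where 18.4% of the 13872 genes tested did not (9.53% higher and 8.84% lower with AKOC). Since the members were chosen on this contrast, nothing is read from that count. Under scaling to library totals, and in FPKM, Ghr overlapped, and under either other filter Igfbp4 did, with 3 members left each time. In sign, 6 members had positive and 3 negative fold changes, with a median of 0.43 beside -0.01 over all genes tested. The signs and the median depend on the same choice of members, and nothing is read from them either. The edgeR quasi-likelihood test called 0% of genes at an adjusted p under 0.05, no member among them. The lowest adjusted p was 0.223, and 1671 genes had an unadjusted p under 0.05, whereas DESeq2 called 289 genes. In bulk tissue, fewer cells of a type and less RNA per cell cannot be told apart.

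**Figure D2:**
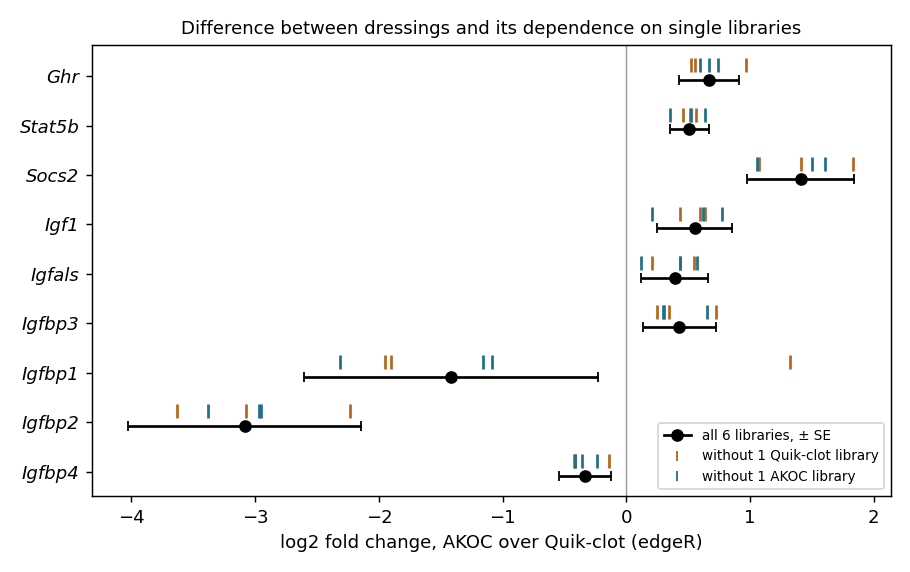
Log2 fold change of each member, AKOC over Quik-clot, with all 6 libraries (black point, bars ± SE) and with 1 library left out (ticks, brown for a Quik-clot and blue for an AKOC library). Only Igfbp1 crosses 0, at 1.33 without Quik-clot replicate 3.

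Levels of different genes were compared on the FPKM scale, which divides by transcript length. Igfbp4 was the most abundant member after either dressing, at 423 ± 40.8 FPKM with Quik-clot and 323 ± 49.5 FPKM with AKOC. After Quik-clot it was followed by Igf1 (145 ± 34.7), Igfbp1 (143 ± 204), Ghr (84.2 ± 31.6), Igfbp2 (65.9 ± 64.6), Igfals (22.9 ± 7.61), Igfbp3 (17.8 ± 6.55), Stat5b (5.55 ± 0.31) and Socs2 (1.30 ± 0.57). From Igf1 down to Igfbp3 each neighbour in that order overlapped with the next. After AKOC the order was Igf1 (197 ± 69.8), Ghr (125 ± 9.39), Igfbp1 (54.7 ± 39.8), Igfals (27.7 ± 7.76), Igfbp3 (23.0 ± 8.09), Stat5b (7.44 ± 0.82), Igfbp2 (7.40 ± 3.08) and Socs2 (3.43 ± 1.65), again in FPKM. There Igfbp4 overlapped with Igf1, Igfbp1 with Igfals, Igfals with Igfbp3, and Stat5b with Igfbp2. Igfbp2 thus held place 5 with Quik-clot and place 8 with AKOC.

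The mix of binding protein transcripts differed between single libraries. Igfbp4 made up 69.0%, 89.1% and 50.97% of the summed FPKM of Igfbp1 to Igfbp6 with Quik-clot and 83.9%, 73.2% and 80.5% with AKOC. Igfbp2 took 22.7% in Quik-clot replicate 1 and 1.23% to 6.35% in the other 5. Igfbp1 took 41.1% in Quik-clot replicate 3 and 22.4% in AKOC replicate 2, against 3.82% to 9.79% elsewhere. The summed level was 591, 441 and 922 FPKM with Quik-clot and 441, 449 and 337 FPKM with AKOC. Quik-clot replicates 1 and 3 therefore held both the highest sums and the least of it as Igfbp4. Igfbp5 and Igfbp6 were near absent, at no more than 0.0254% and 0.321% of the sum.

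**Figure D3:**
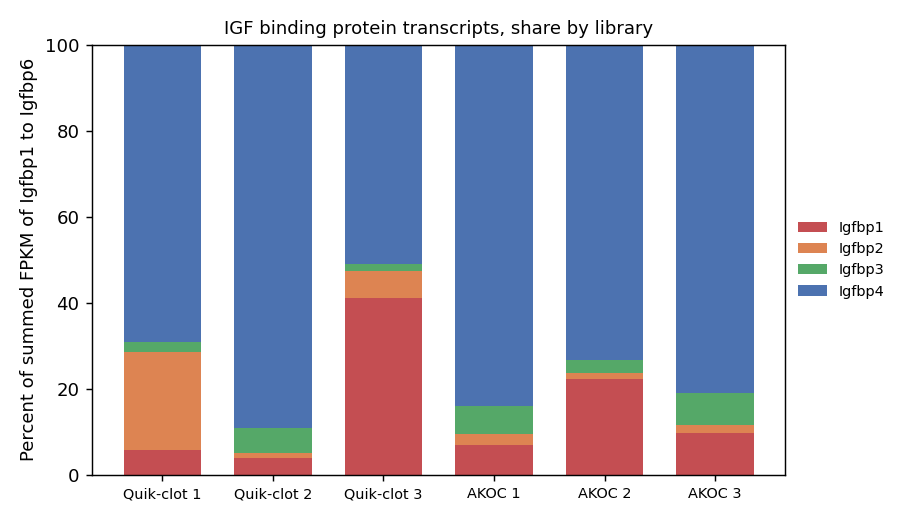
Share of Igfbp1, Igfbp2, Igfbp3 and Igfbp4 in the summed FPKM of Igfbp1 to Igfbp6 for each library, as stacked bars in percent (Igfbp5 and Igfbp6 are too small to see). Igfbp2 reaches 22.7% in Quik-clot replicate 1 and Igfbp1 41.1% in Quik-clot replicate 3, while Igfbp4 makes up 73.2% to 83.9% of the AKOC bars.

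Among 33 tested genes of growth hormone and IGF signalling outside the members, none passed the adjusted threshold. At an unadjusted p under 0.05 there were 3, or 9.09%, against 12% of all genes tested. There were 2 higher and 1 lower with AKOC, where 6.48% and 5.57% of all genes were. The median log2 fold change was -0.14 beside -0.01 over all genes. Stat5a, the close relative of Stat5b encoded next to it, measured 5.55, 6.51 and 5.08 CPM with Quik-clot and 7.90, 8.57 and 7.54 CPM with AKOC, without overlap (log2 fold change 0.49 ± 0.15, adjusted p = 0.339). The adaptor Grb2 averaged 58.4 ± 4.84 and 70.5 ± 3.41 CPM (0.27 ± 0.11, adjusted p = 0.405). Socs7, a suppressor of cytokine signalling, averaged 7.27 ± 0.95 and 5.35 ± 0.24 CPM (-0.44 ± 0.15, adjusted p = 0.368).

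The kinase Jak2 had no such separation, at 23.8 ± 6.64 and 18.4 ± 3.20 CPM (adjusted p = 0.518). Cish, another STAT5 feedback gene, did not follow Socs2: it measured 3.40, 1.95 and 12.8 CPM with Quik-clot and 5.16, 11.2 and 1.12 CPM with AKOC, a log2 fold change of -0.05 ± 0.89 (adjusted p = 0.988). Socs3, the feedback inhibitor induced by interleukin 6, measured 11.4, 12.0 and 50.3 CPM with Quik-clot and 10.8, 11.1 and 5.71 CPM with AKOC. Its log2 fold change was -1.42 ± 0.61 (adjusted p = 0.414), and Quik-clot replicate 3 stood apart from all others.

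The IGF1 receptor gene Igf1r was low, at 1.55 ± 0.094 and 1.65 ± 0.29 CPM (adjusted p = 0.902), and the fetal hormone Igf2 at 0.49 ± 0.19 and 0.44 ± 0.22 CPM (adjusted p = 0.919). The insulin receptor Insr averaged 98.2 ± 17.7 and 90.9 ± 13.7 CPM (adjusted p = 0.818). Of the insulin receptor substrates, Irs1 averaged 20.5 ± 7.51 and 16.9 ± 4.10 CPM (adjusted p = 0.703). Irs2 measured 18.2, 9.51 and 59.5 CPM with Quik-clot and 7.81, 24.7 and 12.7 CPM with AKOC (adjusted p = 0.596), with Quik-clot replicate 3 and AKOC replicate 2 highest, as for Igfbp1.

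Other genes that bind, cleave or release IGFs gave 21 tested members, of which none passed the adjusted threshold and 1, or 4.76%, had an unadjusted p under 0.05, against 12% of all genes. That gene was Igfbp7, a low-affinity binding protein of vessel walls, at 19.3, 36.4 and 29.04 CPM with Quik-clot and 48.5, 36.9 and 41.3 CPM with AKOC (log2 fold change 0.58 ± 0.23, adjusted p = 0.405). The list's median was 0.10. Markers of cells other than hepatocytes were set beside these values. Over all 13872 genes tested, 7206 had negative fold changes. Of 10 sinusoidal endothelial markers 9 had negative fold changes, and their sum was 741 to 877 CPM with Quik-clot and 643 to 717 CPM with AKOC. Of 10 macrophage markers 9 were negative (954 to 1635 against 811 to 1174 CPM), and of 10 stellate cell and fibroblast markers 7 were positive (130 to 272 against 251 to 308 CPM). Of the rarer cell types, all 5 tested T and NK cell markers were negative (median log2 fold change -1.02). An unadjusted p under 0.05 was reached by 3 of them, against 12% of all genes. The 6 listed summed to 11.9, 32.3 and 11.2 CPM in Quik-clot replicates 1, 2 and 3 and 7.67 to 10.4 CPM with AKOC. Quik-clot replicate 2 thus stood far above all other libraries. Cholangiocyte markers (4 of 5 tested negative) summed to 14.1 to 25.3 and 15.7 to 20.7 CPM, and neutrophil markers (2 of 4 negative) to 7.75 to 105.6 and 11.7 to 46.8 CPM. No marker of these lists was at 0 in all libraries, and their part in the levels of Igfbp3, Igfbp4 and Igfbp7 was not tested.

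Known growth hormone targets of rat liver lay on both sides. Of 47 tested, 0 passed the adjusted threshold, and 5 were higher and 4 lower with AKOC at an unadjusted p under 0.05, together 19.1% against 12% over all genes. Leaving out Quik-clot replicate 2 made this 15 higher and 6 lower, with 17% of all genes at that threshold. Leaving out Quik-clot replicate 1 made it 2 higher and 1 lower, with 9.21% of all genes, and leaving out AKOC replicate 1 made it 4 higher and 2 lower (11.1%). The list was chosen with earlier results of these data known, so the 19.1% is a description only. Cyp2c7, a growth hormone-dependent P450, measured 1179, 1447 and 1161 CPM with Quik-clot and 2701, 5587 and 3811 CPM with AKOC (log2 fold change 1.68 ± 0.31, adjusted p = 0.275). Its dressings were well apart, and DESeq2 gave an adjusted p of 7.65e-07. The transcription factor genes Onecut2 (-0.43 ± 0.14, adjusted p = 0.358) and Hnf4a (-0.41 ± 0.15, adjusted p = 0.375) were lower with AKOC without overlap. How reads shared by near-identical Cyp2c genes were counted is not known, and the level of any 1 of these genes is uncertain for that reason.

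Genes whose expression in rat liver follows the sex-specific rhythm of growth hormone divided the Quik-clot libraries. Cyp2c11, the P450 typical of males, measured 140, 1695 and 118 CPM with Quik-clot and 1766, 767 and 3378 CPM with AKOC (log2 fold change 1.597 ± 1.07, adjusted p = 0.57). Cyp2c12, typical of females, measured 918, 97.02 and 283 CPM with Quik-clot and 8.69, 17.3 and 74.7 CPM with AKOC (-3.69 ± 1.07, adjusted p = 0.331). Quik-clot replicate 2 thus resembled the AKOC libraries in Cyp2c11, and in Cyp2c12 lay next to AKOC replicate 3.

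Cux2, a female-predominant repressor of male genes, was high in the same Quik-clot libraries as Igfbp2. It measured 47.7, 2.36 and 26.9 CPM with Quik-clot and 2.63, 6.46 and 0.89 CPM with AKOC (-2.95 ± 1.06, adjusted p = 0.375). Car3, a carbonic anhydrase higher in male liver, ran the other way, at 125, 2051 and 124 CPM with Quik-clot and 1031, 743 and 1096 CPM with AKOC (0.32 ± 1.03, adjusted p = 0.909). For Car3, edgeR without Quik-clot replicate 2 gave an adjusted p of 0.0442 at a log2 fold change of 2.94. Obp3, an alpha-2u globulin of male liver, measured 1.001, 86.1 and 1.08 CPM with Quik-clot and 1041, 3.82 and 259.6 CPM with AKOC (3.89 ± 2.17, adjusted p = 0.496). There AKOC replicate 2 sat with the low Quik-clot libraries. Cyp2c13, another male P450, did not overlap between the dressings, at 549, 1846 and 546 CPM against 2923, 2253 and 2759 CPM (1.43 ± 0.50, adjusted p = 0.368). DESeq2 gave it an adjusted p of 0.0467, and edgeR without Quik-clot replicate 2 gave 0.0497 at a log2 fold change of 2.27. Bcl6, a male-predominant repressor, broke the pattern, with 49.4, 17.1 and 16.3 CPM with Quik-clot and 5.03, 13.0 and 48.2 CPM with AKOC (adjusted p = 0.883).

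Of 14 male-predominant genes, sorted by sex after their values had been seen, 13 were highest within Quik-clot in replicate 2, all but Bcl6. Over all genes tested 35.9% were. Of 7 female-predominant genes 5 were lowest there, against 32.6% of all genes, the exceptions being Cyp2c7 and Srd5a1. Of the Y-linked genes, Eif2s3y measured 31.7, 41.9 and 30.8 CPM in Quik-clot replicates 1, 2 and 3, and was highest in replicate 2. Uty measured 10.5, 11.002 and 9.02 CPM, so its replicate 2 lay only narrowly above replicate 1. Kdm5d, at 18.7, 17.6 and 13.9 CPM, was not highest in replicate 2. Nor was Ddx3y, at a very low 0.37, 0.21 and 0.11 CPM. Since 35.9% of all genes tested were highest in replicate 2, nothing is read from this order of the Y-linked genes. With AKOC Eif2s3y lay at 40.6 to 43.1 CPM and Uty at 10.6 to 12.4 CPM. The X-linked gene Xist measured 0 CPM in every library except Quik-clot replicate 3, where it was at 0.054 CPM. Quik-clot replicates 1 and 3 thus expressed Y-linked genes and had Xist at or near 0, like the other libraries. The part of the Y-linked differences in the pattern of sex-predominant genes was not tested. Ghr was likewise highest within Quik-clot in replicate 2, and Igfbp2 lowest.

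**Figure D4:**
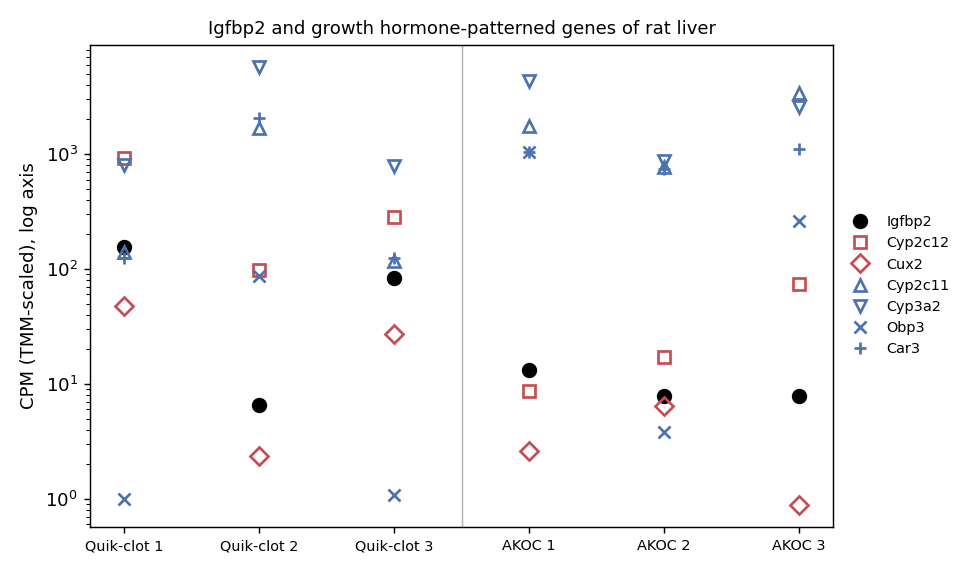
Level of Igfbp2, of female-predominant Cyp2c12 and Cux2 (red) and of male-predominant Cyp2c11, Cyp3a2, Obp3 and Car3 (blue) in each library, in CPM on a log axis, 1 point per library. In Quik-clot replicates 1 and 3 Igfbp2 (155 and 84.0 CPM) and the red genes are high and the blue genes low, and Quik-clot replicate 2 shows the reverse.

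Fasting, insulin, glucocorticoid, hypoxia and stress are known inputs to Igfbp1. The list of genes tied to them, both regulators and targets such as Vegfa, gave 39 tested genes. None passed the adjusted threshold, and 2 were higher and 9 lower with AKOC at an unadjusted p under 0.05, together 28.2% against 12% over all genes. The median was -0.27. Since this list was chosen with earlier results of these data known, the 28.2% is a description only. With the replicate number as a block the count was 7, where 9.06% of all genes were at that threshold. It was 6 without Quik-clot replicate 1 (9.21% of all genes) and 6 without AKOC replicate 3 (7.31%). Fkbp5, a glucocorticoid-induced chaperone, measured 24.98, 18.5 and 55.7 CPM with Quik-clot and 16.5, 15.4 and 11.7 CPM with AKOC (-1.18 ± 0.40, adjusted p = 0.358). The xenobiotic receptor Nr1i2 averaged 122 ± 30.4 and 76.9 ± 5.01 CPM (-0.66 ± 0.19, adjusted p = 0.331). The hypoxia factor Hif1a averaged 53.3 ± 2.83 and 42.7 ± 1.06 CPM (-0.32 ± 0.096, adjusted p = 0.336), and its target Vegfa 179 ± 51.6 and 115 ± 4.06 CPM (-0.64 ± 0.20, adjusted p = 0.343).

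Ppara, the fasting-sensing nuclear receptor, averaged 109 ± 28.5 and 70.0 ± 13.4 CPM (-0.63 ± 0.22, adjusted p = 0.366). Cdkn1a, a cell-cycle inhibitor, was the gene on the higher side, at 3.09, 1.28 and 7.67 CPM with Quik-clot and 34.9, 8.57 and 16.3 CPM with AKOC (2.32 ± 0.72, adjusted p = 0.339). The gluconeogenic gene Pck1, which insulin represses, had a log2 fold change of -0.04 ± 0.34 (adjusted p = 0.971). The forkhead factor Foxo1 averaged -0.31 ± 0.14 on that scale (adjusted p = 0.417).

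Acute phase genes differed in which libraries they stood highest. Of 12 genes, 7 had Quik-clot replicate 3 and AKOC replicate 2 as their 2 highest libraries, as Igfbp1 did, against 5.69% of all genes tested, a count made after their values were seen. A2m and Steap4 were highest in Quik-clot replicate 3 but not second in AKOC replicate 2. Hamp, the iron hormone hepcidin, was highest in Quik-clot replicate 1 (822 CPM, against 56.7 CPM in replicate 3), and Il1b in Quik-clot replicate 2. The 12 genes of that list summed to 27829, 36425 and 83682 CPM with Quik-clot and 37244, 68264 and 31648 CPM with AKOC, with no gene at 0 in all libraries and a few abundant genes making up most of the sum. Lcn2, an iron-binding defence protein, measured 3167 CPM in Quik-clot replicate 3 and 262 CPM in AKOC replicate 2, against 3.10 to 20.9 CPM in the others. The part of these genes in the level of Igfbp1 was not tested. Of 13 clock genes 10 did not overlap between the dressings (3 higher, 7 lower with AKOC, against 9.53% and 8.84% of all genes), with summed levels of 309 to 345 CPM with Quik-clot and 218 to 238 CPM with AKOC. Their part in the levels of Ghr, Stat5b and Socs2 was not tested.

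**Figure D5:**
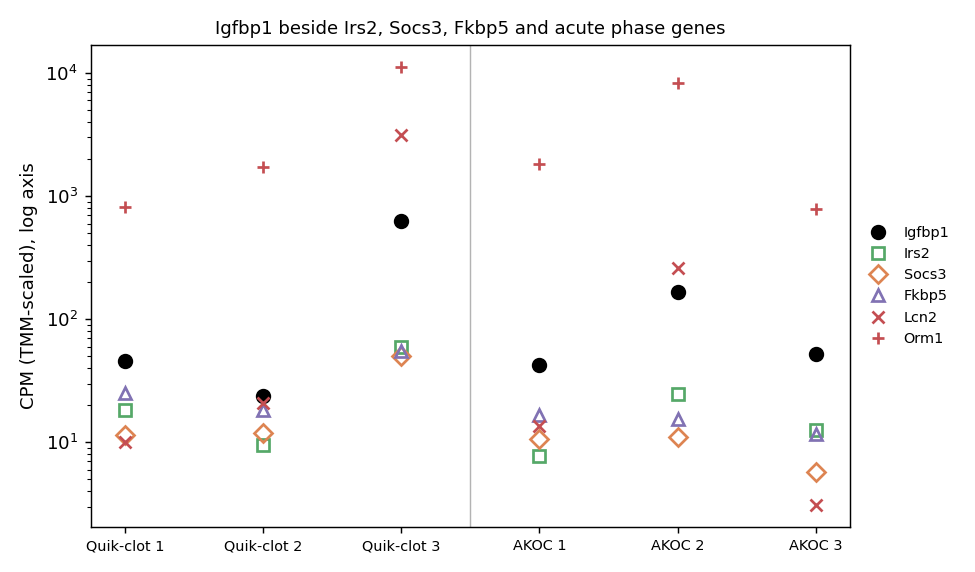
Level of Igfbp1 beside Irs2, Socs3, Fkbp5 and the acute phase genes Lcn2 and Orm1 in each library, in CPM on a log axis, 1 point per library. Quik-clot replicate 3 is highest for all 6 genes, and AKOC replicate 2 is second for Igfbp1, Irs2, Lcn2 and Orm1.

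Genes with the most similar profile over the 6 libraries were found by the root mean square difference of centred log2 CPM, among 11356 candidates. For Igf1 these were Slc50a1, a sugar transporter (difference 0.071), Cyp2t1 (0.096), Ppfibp2 (0.12) and Pdcd4 (0.12), where Igf1 itself varied by 0.42 on that scale. All 4 were highest in AKOC replicate 3, with Slc50a1 at 15.2 CPM against 6.59 to 9.66 CPM elsewhere. For Igfbp1, which varied by 1.58, the nearest were Hcar2, a hydroxybutyrate receptor (0.42), Chac1, a stress-induced glutathione-degrading enzyme (0.54), Hebp2 (0.65) and the insulin receptor substrate Irs2 (0.75). Chac1 measured 6.70 CPM in Quik-clot replicate 3 and 0.32 to 1.20 CPM elsewhere.

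For Igfbp2, which varied by 1.80, the nearest genes were Gpr158 (0.58), Eif4ebp3, a translation inhibitor (0.64), the flavin monooxygenase Fmo2 (0.77) and the drug-inducible P450 Cyp2b1 (0.84). Eif4ebp3 measured 44.6 and 50.6 CPM in Quik-clot replicates 1 and 3 and 6.62 to 10.7 CPM in the other 4 libraries. The level of Cyp2b1 was 14.9 and 4.32 CPM in those 2 and 1.04 to 2.32 CPM elsewhere. These are the closest profiles over only 6 libraries, and no test was made of them.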

How the data were processed

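RNA was sequenced from 6 rat liver samples, 3 per dressing, grouped by their titles. The authors deposited counts per gene as whole numbers without normalization, and FPKM for the same 20104 genes. The submitters' processing notes name fastp, HISAT2, HTSeq and the mRatBN7.2 build, without versions, annotation or strand setting, which the sources used here do not give. For the members the deposited FPKM equal count over length and library total within a relative deviation of 4.05e-10. Antisense or overlapping genes may share counts.

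From the counts, filterByExpr (minimum count 10, minimum total 15) kept 13872 genes. Normalization used the trimmed mean of M values, with factors from 0.902 to 1.12. The test was the two-sided quasi-likelihood F test of edgeR 4.0.16 (R 4.3.3), with dressing as its term. P-values were adjusted by Benjamini-Hochberg over the 13872 genes (threshold 0.05). An SE is the fold change over the square root of F. Log2 CPM for profile likeness used a prior count of 2. The procedure was tested on simulated data. With 3 libraries per dressing, the smallest two-sided p of an exact permutation test is 0.1.

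Members, lists, tests and alternatives were chosen with earlier results of these data known. Named genes are the members, 13 fixed pathway genes and, per list, up to 6 genes of smallest unadjusted p under 0.05 that did not overlap at a mean of at least 1 CPM. Cux2, Car3, Obp3, Pck1, Foxo1, Lcn2, Orm1, A2m, Steap4, Hamp, Il1b, Cyp3a2 and Srd5a1 were chosen after their values were seen. Profile likeness took the 4 nearest genes to Igf1, Igfbp1 and Igfbp2. Alternatives were DESeq2 1.42.0, limma 3.58.1 (voom, and trend on log2 FPKM with pseudocounts 1 and 0.1), other scalings and filters, a replicate block and leaving out each library.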

Additional observations from a re-analysis of the deposited data

How the results depend on the processing

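Over 15 alternatives, 134 of 135 fold changes of the members moved by less than the spread (1 SD) between libraries of a dressing, and 1 changed sign, Igfbp1 at 1.33 without Quik-clot replicate 3 (-2.31 to 1.33 over the libraries left out). That spread was wide for Igfbp1 (1.92, log2) and Igfbp2 (1.73). Igfbp1, at -1.42, was -0.33 with limma-voom, -0.38 and -0.37 on log2 FPKM with pseudocounts of 1 and 0.1, and -0.23 with the replicate block. Igfbp2, at -3.08, was -2.22, -2.21, -2.30 and -2.40 in those fits. Genes called over all genes numbered 0 with edgeR, 289 with DESeq2, 1 with the replicate block and 0 to 18 when a library was left out, the most without Quik-clot replicate 2. DESeq2 included Socs2 among its calls, and edgeR without Quik-clot replicate 2, the library lowest in Igfbp2, included Igfbp2. Since the members were chosen on this contrast, these calls are no test of them. Genes at an unadjusted p under 0.05 numbered 1037 (without AKOC replicate 3) to 2405 when a library was left out. Genes without overlap numbered 2548 with all libraries and 3626 to 5067 with 1 fewer, since fewer libraries overlap less often by construction. At an unadjusted p under 0.05, signalling genes numbered 3, or 1 with library totals, 5 with DESeq2, 0 and 1 with log2(FPKM + 1) and log2(FPKM + 0.1), and 0 to 5 without a library. Binding and cleavage genes numbered 1, or 0 with library totals, either FPKM fit or the replicate block, 2 with no filter and 0 to 1 without a library. Growth hormone targets numbered 9, and 3 (without Quik-clot replicate 1) to 21 (without Quik-clot replicate 2). Genes of the list of inputs to Igfbp1 numbered 11, or 7 with the replicate block and 6 to 13 without a library. The causes were not tested.

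The replicate numbers did not pair the libraries: deviations of same-numbered libraries from their group means correlated at -0.072, -0.082 and -0.20 across genes, so the replicate block says little here. The lowest count of a member was 151 reads. Whether depth or the spread between 3 libraries per dressing limits the members more was not tested.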
